A study of Homo sapiens with 14 samples.

Results

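Ribosome assembly in the nucleolus was followed through 45 listed genes, of which 38 had a named probe set past the filter on low levels (log2 of at least 4 on at least 2 arrays), out of 9301 genes that passed it. Each gene is represented by its brightest probe set that carries no other gene symbol. NOP56, DKC1, BOP1 and PPAN had only probe sets shared with other symbols, and EBNA1BP2, DDX18 and GNL3 had none under their own symbol in the annotation used here, so these 7 genes have no value. All 38 remaining genes stayed above the filter level on each of the 14 arrays, so none of them entered through a single group in which it was high. The genes form a functional list and were not picked by a threshold on these values. The list was chosen with earlier results of these data known, which bears on the shares of called genes given below.

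The cells were MM1S, an established line of human multiple myeloma, a cancer of plasma cells, grown in medium with serum. Treatments lasted 6 h and each of the 7 groups held 2 arrays, labelled as biological replicates. The single treatments were 1 nM salmeterol, which activates the beta-2 adrenergic receptor, 12.5 nM CGS-21680, which activates an adenosine receptor, dexamethasone at a low dose of 25 nM, and dexamethasone at a high dose of 2 µM. Either agonist was also given together with the low dose, and the last group was left untreated, with no time listed for it. Dexamethasone is a synthetic glucocorticoid used against myeloma, and both receptors signal through cyclic AMP. All groups are the same single line, so nothing here speaks for other myeloma cells. In bulk RNA, fewer cells that make a transcript and less of it per cell cannot be told apart.

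Ribosomes are built around ribosomal RNA that RNA polymerase I copies in the nucleolus. Small nucleolar ribonucleoproteins (snoRNPs) modify the precursor, the small subunit processome folds and cleaves the part that becomes the 40S subunit, and a separate series of factors assembles the 60S subunit. Many genes of this machinery are well-known targets of the transcription factor MYC, and growing cells such as myeloma cells keep them highly active.

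The 38 genes were mostly lower with dexamethasone and lowest with a combination. Relative to its untreated mean, the median gene stood at -0.20 and -0.25 (log2) on the salmeterol arrays, at -0.04 and 0.06 on the CGS-21680 arrays, at -0.58 and -0.50 with low dexamethasone and at -0.68 and -0.55 with high dexamethasone. On the arrays of salmeterol with low dexamethasone it stood at -1.19 and -1.12, and on those of CGS-21680 with low dexamethasone at -0.86 and -0.88. The low and high dexamethasone arrays overlapped in this median, and every combination array lay below every array of a single treatment. The same median over all 9301 genes stayed between -0.06 and 0.04 on every array. Salmeterol with low dexamethasone was the lowest group for 34 of the 38 genes, and the highest group was CGS-21680 alone for 21 genes and untreated cells for 15. The exceptions at the low end were PNO1 and RRP12, lowest with high dexamethasone, and LTV1 and MRTO4, lowest with CGS-21680 and low dexamethasone. For PNO1 and RRP12 this order depends on the probe set, since the second set of each was lower with the salmeterol combination (-2.38 and -0.42) than with high dexamethasone (-0.92 and -0.11).

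**Figure D1:**
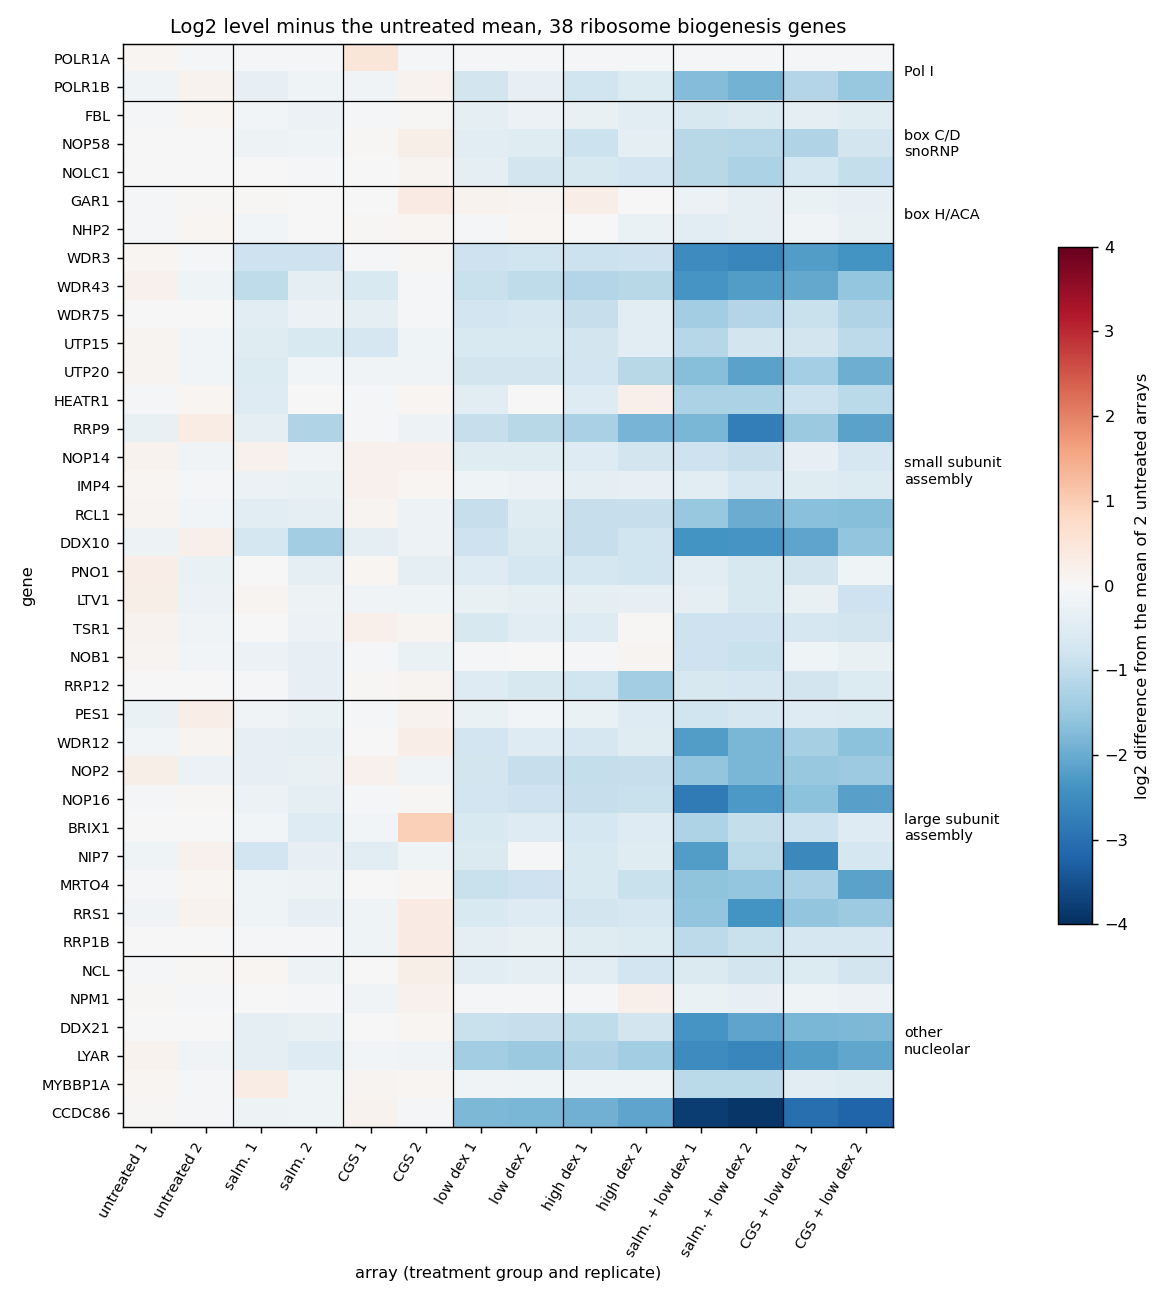
Log2 level of each of 38 ribosome biogenesis genes (rows, grouped by role) on each of 14 arrays (columns), minus the mean of the 2 untreated arrays of that gene. Blue is lower and red higher than untreated; the 4 combination columns at the right are the bluest, with CCDC86 near -3.84 in the salmeterol combination, while POLR1A and NPM1 stay pale throughout.

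A moderated F test (limma) over the 7 groups called 30 of the 38 genes (78.9%) different at an adjusted p under 0.05, against 25.9% of all genes tested. P-values here come from a single limma fit of the 7 group means to all 14 arrays, adjusted by Benjamini-Hochberg over all 9301 genes. They measure the spread between arrays of a group, which may be technical, since the separation of the cultures is not described. The smallest adjusted p of the F test belonged to CCDC86 (1.92e-07), WDR3 (9.41e-07) and LYAR (4.06e-06). In the 13 pairwise comparisons, every gene of the 38 that was called was lower, and none was called higher.

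The promoter sequences shown here are of genes called lower with high dexamethasone. The windows run from 250 bases before to 50 bases after the start site in RefSeq on GRCh38.p14, and 38 of the 45 listed genes have one in that table. The 6 shown have the smallest adjusted p with high dexamethasone among the called genes that hold the E box CACGTG, the site bound by MYC with its partner MAX and by related factors. Of the 14 called genes 12 have a promoter in the table, of which 7 hold the box; WDR3, LYAR, DDX21, NOP16 and NCL do not. Each runs 5′ to 3′ on the gene's strand, with capitals marking CACGTG and, in CCDC86, also the cyclic AMP response element TGACGTCA.
CCDC86 (chr11:60841863-60842162, plus strand): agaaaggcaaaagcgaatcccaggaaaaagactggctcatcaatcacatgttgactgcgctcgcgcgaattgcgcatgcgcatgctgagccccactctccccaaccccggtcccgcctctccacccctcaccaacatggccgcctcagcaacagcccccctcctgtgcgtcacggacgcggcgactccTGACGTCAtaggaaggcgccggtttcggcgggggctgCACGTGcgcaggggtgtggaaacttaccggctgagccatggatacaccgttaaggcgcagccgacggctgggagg
NOP2 (chr12:6568242-6568541, minus strand): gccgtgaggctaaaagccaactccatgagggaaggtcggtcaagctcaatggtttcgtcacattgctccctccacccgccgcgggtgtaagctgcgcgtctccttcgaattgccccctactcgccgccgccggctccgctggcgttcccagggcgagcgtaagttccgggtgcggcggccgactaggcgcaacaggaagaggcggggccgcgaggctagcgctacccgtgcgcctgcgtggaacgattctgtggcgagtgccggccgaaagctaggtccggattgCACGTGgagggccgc
RCL1 (chr9:4792694-4792993, plus strand): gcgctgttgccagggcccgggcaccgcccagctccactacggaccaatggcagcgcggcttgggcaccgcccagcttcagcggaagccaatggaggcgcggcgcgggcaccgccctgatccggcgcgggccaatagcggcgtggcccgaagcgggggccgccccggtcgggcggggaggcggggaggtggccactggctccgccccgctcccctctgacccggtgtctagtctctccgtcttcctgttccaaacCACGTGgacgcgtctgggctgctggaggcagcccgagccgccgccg
WDR43 (chr2:28894417-28894716, plus strand): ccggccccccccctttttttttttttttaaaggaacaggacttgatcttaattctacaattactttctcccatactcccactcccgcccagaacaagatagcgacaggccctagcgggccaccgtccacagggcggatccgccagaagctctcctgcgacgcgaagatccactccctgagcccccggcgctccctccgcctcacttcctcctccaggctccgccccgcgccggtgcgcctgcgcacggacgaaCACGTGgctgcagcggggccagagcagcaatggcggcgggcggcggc
RRP9 (chr3:51941855-51942154, minus strand): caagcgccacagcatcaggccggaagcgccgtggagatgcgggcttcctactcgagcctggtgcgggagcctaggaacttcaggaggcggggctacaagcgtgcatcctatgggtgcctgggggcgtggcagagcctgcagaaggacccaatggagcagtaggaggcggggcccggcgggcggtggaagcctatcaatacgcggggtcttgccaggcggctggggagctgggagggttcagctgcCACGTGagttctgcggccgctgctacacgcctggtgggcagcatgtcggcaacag
UTP20 (chr12:101279855-101280154, plus strand): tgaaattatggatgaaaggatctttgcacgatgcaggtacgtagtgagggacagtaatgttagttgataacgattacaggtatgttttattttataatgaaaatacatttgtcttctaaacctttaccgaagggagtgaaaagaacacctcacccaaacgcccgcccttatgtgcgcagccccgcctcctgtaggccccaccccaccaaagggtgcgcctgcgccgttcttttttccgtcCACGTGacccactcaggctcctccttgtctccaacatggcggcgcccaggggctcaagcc

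CACGTG reads the same on both strands and was found in 15 of the 38 listed genes' promoters (39.5%), or 14 of the 33 with a measured level (42.4%), against 2548 of all 35116 promoters of the same length (7.26%). The box was in 12 of 27 promoters of genes called lower with salmeterol and low dexamethasone (44.4%) and in 2 of 6 of those not called there (33.3%). Of the 16 boxes in those 15 promoters, 14 began within 40 bases of the start site (87.5%), against 27.7% of the boxes over all promoters. The share was 32.2% (28 of 87) among other ribosome assembly factors and 4.76% (3 of 63) among ribosomal protein genes. The listed genes' promoters were also richer in G and C, with a median of 64.0% against 58.7% over all promoters, which was not balanced in these shares. The cyclic AMP response element TGACGTCA, also its own reverse complement, occurred in 2 of the listed genes' 38 promoters (5.26%, against 1.85% of all), those of CCDC86 and DDX10. TGTTCT, a stretch of the glucocorticoid receptor's usual binding site, was searched on both strands and occurred in 6 (15.8%, against 14.8%). Among genes with a value, those with an E box had a median change of -1.33 with salmeterol and low dexamethasone (14 genes) and those without it -1.26 (19 genes), a difference that was not tested. These matches describe letters in a window and no binding was measured.

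Dexamethasone alone lowered part of the set. At the low dose 5 of the 38 genes were called lower, against 2.18% of all genes: CCDC86, LYAR, WDR3, DDX21 and NOP2. At the high dose 14 genes were called lower, against 4.21% of all genes; these were the same 5 with RRP12, NOLC1, RCL1, NOP16, WDR43, RRP9, UTP20, NOP14 and NCL. The median difference from untreated over the 38 genes was -0.55 (log2) at the low dose and -0.62 at the high dose, where the median over all genes was 0 and -0.002. Between the doses no gene was called by limma, 1 of the 38 passed an unadjusted p under 0.05, and the median difference was -0.12; of all 9301 genes 0% were called lower and 328 passed an unadjusted p under 0.05 in either direction. After quantile normalization the counts were 9 and 20, and with each array left out in turn the low-dose count was 4 to 7. The high-dose count depended on single arrays: it was 5 without untreated replicate 1, 6 without untreated replicate 2 and 7 without high dexamethasone replicate 2. Both doses were compared with the same 2 untreated arrays.

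Few or none of the 38 genes were called with an agonist alone. Salmeterol lowered WDR3 and DDX10, 2 of the 38 genes, against 4.24% of all genes (3.13% after quantile normalization, where 42.8% of the called genes were higher rather than 29.0%). That count is close to the share over all genes. The median difference was -0.24 over the 38 genes and -0.06 over all genes (-0.145 and 0.033 after quantile normalization). At an unadjusted p under 0.05 (limma), LYAR, DDX21, UTP15, WDR43, IMP4 and NOB1 were also lower with salmeterol. The share of all genes at that level is not given here. With the mean of its probe sets DDX21 differed by -0.38 and was called (adjusted p = 0.048). WDR3 fell by 0.83 ± 0.095 (log2 difference ± standard error, n = 2 arrays a group here and below; adjusted p = 0.00143). The DDX10 call (adjusted p = 0.0394) was lost on leaving out any single array except salmeterol replicate 1 and the 2 of CGS-21680 with low dexamethasone. CGS-21680 alone gave no call among the 38 genes with limma and none at an unadjusted p under 0.05, with 0.269% of all genes called lower and a median difference of 0.02.

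Both combinations lowered most of the set. Against untreated cells, salmeterol with low dexamethasone lowered 32 of the 38 genes, where 13.7% of all genes were called lower, and the median gene fell by 1.15 (log2), to 0.45 of its untreated level. CGS-21680 with low dexamethasone lowered 26 of the 38, where 8.13% of all genes were called lower, and the median gene stood at 0.525 of its untreated level. All 38 differences were below 0 in both combinations. Called genes are named with their roles in the paragraphs that follow. With the probe sets used, 6 genes, POLR1A, GAR1, PNO1, LTV1, NIP7 and NPM1, were called in no comparison with untreated cells. Of these, PNO1, NIP7 and NPM1 were called lower in the salmeterol combination with the mean of a gene's probe sets.

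Against low dexamethasone alone, adding salmeterol lowered 20 of the 38 genes, where 8.13% of all genes were called lower, with a median difference of -0.70. Adding CGS-21680 lowered 9, where 1.64% of all genes were called lower, with a median difference of -0.40: WDR3, CCDC86, DDX21, LYAR, NOP16, RCL1, WDR12, DDX10 and POLR1B. The salmeterol count fell to 13 without low dexamethasone replicate 1, and the CGS-21680 count to 4 without low dexamethasone replicate 1 and 3 without replicate 2. POLR1B beside CGS-21680 (adjusted p = 0.0499) was called with all arrays and lost whichever of the 14 arrays was left out.

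The combinations were also lower than the high dose of dexamethasone alone. Salmeterol with low dexamethasone lay lower for 18 of the 38 genes (8.3% of all genes were called lower), with a median difference of -0.66, and for 11 without replicate 2 of that combination. CGS-21680 with low dexamethasone lay lower for 6 genes (1.43% of all genes), with a median difference of -0.38. Those 6, WDR3, CCDC86, DDX21, LYAR, WDR12 and NOP16, were among the 18.

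**Figure D2:**
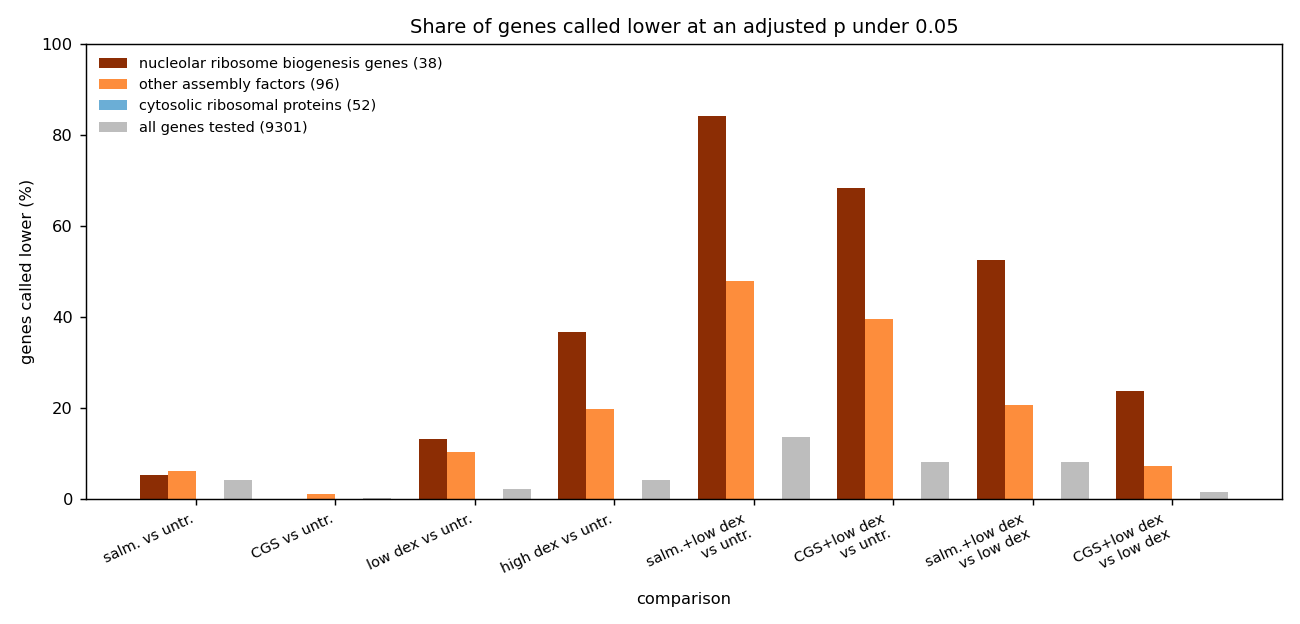
Percentage of genes called lower (limma, adjusted p under 0.05) in 8 comparisons, for 38 nucleolar ribosome biogenesis genes, 96 other assembly factors, 52 cytosolic ribosomal proteins and all 9301 genes tested. The dark bars reach 84.2% for salmeterol with low dexamethasone against untreated cells, the ribosomal proteins have no bar in any of these comparisons because 0 were called lower, and CGS-21680 alone has a visible bar of 1.04% only for the other assembly factors.

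RNA polymerase I is represented by its largest subunits. POLR1B, the second-largest subunit, read 9.38 and 9.67 on the untreated arrays, 9.20 and 9.36 with salmeterol, 9.38 and 9.68 with CGS-21680, 8.80 and 9.19 with low dexamethasone and 8.71 and 8.99 with high dexamethasone. With the combinations POLR1B read 7.80 and 7.62 beside salmeterol and 8.34 and 7.99 beside CGS-21680. Both arrays of either combination lay below all arrays of the other 5 groups. POLR1B fell by 1.81 ± 0.19 with the salmeterol combination and by 1.36 ± 0.19 with the CGS-21680 combination against untreated cells. A dim second probe set of POLR1B differed by 0.09 with high dexamethasone, opposite to the -0.68 of the set used, and by -0.19 with the salmeterol combination. The remaining sets, also dim, differed by -1.60 and -1.54 with that combination. POLR1A, the largest subunit and part of the catalytic centre, read 6.34 and 6.21 on the untreated arrays, 6.21 and 6.24 with salmeterol, 6.76 and 6.21 with CGS-21680, 6.21 and 6.21 with low dexamethasone and 6.21 and 6.21 with high dexamethasone. With the combinations POLR1A read 6.21 and 6.21 beside salmeterol and 6.21 and 6.21 beside CGS-21680. Its group means spanned 0.28, the narrowest range of the 38 genes, and it was called in no comparison. Most of its arrays read the same 6.21, so differences may be compressed and a constant level is not shown. A dim second probe set of POLR1A differed by -0.41 with high dexamethasone and -0.35 with the salmeterol combination.

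The box C/D snoRNPs place methyl groups on ribosomal RNA. Their methyltransferase fibrillarin (FBL) fell by 0.60 ± 0.1 with the salmeterol combination and by 0.44 ± 0.1 with the CGS-21680 combination. NOP58, a core protein of the same particles, fell by 1.12 ± 0.18 and 0.98 ± 0.18. NOLC1, a chaperone of snoRNPs, fell by 0.70 ± 0.14 with high dexamethasone and by 1.18 ± 0.14 and 0.83 ± 0.14 with the combinations; the high-dose call was lost when its probe sets were averaged (adjusted p = 0.069). None of the 3 was called with low dexamethasone or an agonist alone.

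The box H/ACA snoRNPs convert uridine to pseudouridine. Of their listed genes, GAR1 and NHP2 moved little and DKC1 had no value. NOP10, a further protein of these particles, was outside the list. Its mean was 12.10 in untreated cells, 11.68 with low dexamethasone and 11.52 with high dexamethasone (standard error of a difference 0.15). GAR1 and NHP2 therefore do not speak for the whole particle. GAR1 differed by -0.31 ± 0.13 and -0.30 ± 0.13 in the combinations and was not called. NHP2 read 12.48 and 12.63 on the untreated arrays, 12.46 and 12.53 with salmeterol, 12.62 and 12.62 with CGS-21680, 12.46 and 12.64 with low dexamethasone and 12.56 and 12.29 with high dexamethasone. With the combinations NHP2 read 12.14 and 12.21 beside salmeterol and 12.43 and 12.27 beside CGS-21680. The salmeterol combination arrays lay below the other 12, and NHP2 fell by 0.38 ± 0.12 there (adjusted p = 0.0422), a call lost in 8 of the 14 fits that left out an array. Its group means spanned 0.45.

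The small subunit processome and later 40S factors made up 16 of the 38 genes. With the salmeterol combination 14 of them were called lower and with the CGS-21680 combination 12. WDR3, a component of the processome, read 8.17 and 7.99 on the untreated arrays, 7.26 and 7.24 with salmeterol, 8.02 and 8.12 with CGS-21680, 7.24 and 7.29 with low dexamethasone and 7.21 and 7.24 with high dexamethasone. With the combinations WDR3 read 5.55 and 5.48 beside salmeterol and 5.84 and 5.70 beside CGS-21680. With salmeterol, low dexamethasone and high dexamethasone WDR3 read about the same level, and the combination arrays lay lower again, with no overlap. An identical 7.24 recurred on an array of each of those single treatments, so differences near that level may be compressed, which was not tested. It was the single gene called in 5 of the 6 comparisons with untreated cells, with falls of 0.83 ± 0.095 for salmeterol, 0.81 ± 0.095 for low dexamethasone, 0.86 ± 0.095 for high dexamethasone, 2.56 ± 0.095 for the salmeterol combination (adjusted p = 3.04e-07) and 2.31 ± 0.095 for the CGS-21680 combination.

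WDR43, WDR75, UTP15 and HEATR1 belong to the subcomplex that joins the precursor first and that also supports its transcription. With the salmeterol combination WDR43 fell by 2.30 ± 0.26, WDR75 by 1.29 ± 0.19, UTP15 by 0.95 ± 0.20 and HEATR1 by 1.26 ± 0.25. With the CGS-21680 combination the 4 falls were 1.80 ± 0.26, 1.06 ± 0.19, 0.89 ± 0.20 and 0.97 ± 0.25 in that order. WDR43, with an E box 4 bases after the start site in the sequence above, was the member of this subcomplex called with high dexamethasone, where it fell by 1.13 ± 0.26. All 4 were called in both combinations.

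RRP9, a protein of the U3 snoRNP that guides early cleavage, fell by 1.59 ± 0.39 with high dexamethasone, 2.30 ± 0.39 with the salmeterol combination and 1.81 ± 0.39 with the CGS-21680 combination. Its arrays varied widely: 6.73 and 7.35 untreated, 6.67 and 5.83 with salmeterol and 5.22 and 4.27 with the salmeterol combination. UTP20, a large scaffold protein, fell by 0.94 ± 0.24 with high dexamethasone and by 1.92 ± 0.24 and 1.65 ± 0.24 with the combinations. RCL1, a processome protein related to RNA cyclases, fell by 0.92 ± 0.19, 1.75 ± 0.19 and 1.70 ± 0.19 in the same order, and its second probe set differed by less, -0.45 with high dexamethasone and -1.02 with the salmeterol combination. The processome proteins NOP14 and IMP4 moved less. NOP14 fell by 0.62 ± 0.16 with high dexamethasone and 0.87 ± 0.16 with the salmeterol combination, and its -0.49 ± 0.16 with the CGS-21680 combination was not called. IMP4 fell by 0.56 ± 0.097 and 0.51 ± 0.097 with the combinations.

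DDX10, an RNA helicase of the processome, read 8.11 and 8.55 on the untreated arrays, 7.62 and 6.95 with salmeterol, 7.97 and 8.13 with CGS-21680, 7.51 and 7.74 with low dexamethasone and 7.41 and 7.54 with high dexamethasone. With the combinations DDX10 read 5.93 and 5.98 beside salmeterol and 6.21 and 6.77 beside CGS-21680. Every array with salmeterol or dexamethasone lay below the untreated ones, and salmeterol replicate 2 lay well below replicate 1. DDX10 fell by 2.37 ± 0.25 with the salmeterol combination and 1.84 ± 0.25 with the CGS-21680 combination. RRP12, which helps export the precursor of the small subunit, read 8.22 and 8.27 on the untreated arrays, 8.17 and 7.92 with salmeterol, 8.28 and 8.34 with CGS-21680, 7.71 and 7.59 with low dexamethasone and 7.45 and 6.84 with high dexamethasone. With the combinations RRP12 read 7.59 and 7.57 beside salmeterol and 7.52 and 7.71 beside CGS-21680. RRP12 was lowest with high dexamethasone, where it fell by 1.10 ± 0.18 (adjusted p = 0.00551) with its replicates far apart. Its second probe set differed by -0.11 there and by -0.42 with the salmeterol combination, so both the size and the order depend on the probe set. The combinations differed from low dexamethasone by -0.07 ± 0.18 and -0.04 ± 0.18.

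Of the late factors that finish the small subunit, NOB1, the nuclease that trims its RNA, differed by -0.04 ± 0.12 with low dexamethasone and fell by 0.85 ± 0.12 with the salmeterol combination, while its -0.23 ± 0.12 with the CGS-21680 combination was not called. TSR1, a GTPase-like factor, fell by 0.82 ± 0.18 and 0.70 ± 0.18 with the combinations, and its other 3 probe sets differed by -0.62, -1.54 and -1.49 in the salmeterol combination. PNO1, a partner of NOB1, and LTV1 were not called: PNO1 differed by -0.53 ± 0.25 and -0.46 ± 0.25, and LTV1 by -0.50 ± 0.21 and -0.55 ± 0.21. A second probe set of PNO1 differed by -2.38 in the salmeterol combination, and with the mean of both sets the difference was -1.45 (adjusted p = 0.000699), so the value of PNO1 depends on the probe set.

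Factors of the 60S subunit made up 9 of the 38 genes, of which 8 were called lower with the salmeterol combination and 6 with the CGS-21680 combination. NOP16, an early 60S factor, read 9.93 and 10.04 on the untreated arrays, 9.74 and 9.63 with salmeterol, 9.90 and 10.04 with CGS-21680, 9.23 and 9.15 with low dexamethasone and 9.08 and 9.10 with high dexamethasone. With the combinations NOP16 read 7.15 and 7.68 beside salmeterol and 8.35 and 7.82 beside CGS-21680. The dexamethasone arrays lay below those without it, and the combination arrays lay lowest, without overlap. NOP16 fell by 0.90 ± 0.20 with high dexamethasone, 2.57 ± 0.20 with the salmeterol combination and 1.90 ± 0.20 with the CGS-21680 combination. Its other 3 probe sets differed by -2.72, -0.40 and -0.08 in the salmeterol combination, so the size depends on the probe set. NOP2, a methyltransferase of the large ribosomal RNA, read 9.37 and 8.88 on the untreated arrays, 8.79 and 8.83 with salmeterol, 9.28 and 8.98 with CGS-21680, 8.40 and 8.22 with low dexamethasone and 8.18 and 8.21 with high dexamethasone. With the combinations NOP2 read 7.56 and 7.30 beside salmeterol and 7.61 and 7.67 beside CGS-21680. Its arrays fell from untreated through dexamethasone to the combinations without overlap between those 3 levels. NOP2 fell by 0.82 ± 0.17 with low dexamethasone (adjusted p = 0.0273), 0.93 ± 0.17 with high dexamethasone, and 1.70 ± 0.17 and 1.48 ± 0.17 with the combinations; the low-dose call was lost without untreated replicate 1 or either low dexamethasone array.

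WDR12 and PES1 act in the same complex, which is needed for the large ribosomal RNA. WDR12 read 9.04 and 9.23 on the untreated arrays, 8.81 and 8.75 with salmeterol, 9.16 and 9.38 with CGS-21680, 8.38 and 8.62 with low dexamethasone and 8.46 and 8.66 with high dexamethasone. With the combinations WDR12 read 6.90 and 7.31 beside salmeterol and 7.81 and 7.50 beside CGS-21680. WDR12 fell by 2.03 ± 0.17 and 1.48 ± 0.17 with the combinations. PES1 fell by 0.73 ± 0.17 with the salmeterol combination and differed by -0.53 ± 0.17, not called, with the CGS-21680 combination. RRS1, which helps bring the small 5S RNA into the precursor, fell by 1.99 ± 0.25 and 1.52 ± 0.25. MRTO4, which holds the place of the stalk protein, fell by 1.58 ± 0.23 and 1.71 ± 0.23. RRP1B fell by 0.97 ± 0.15 and 0.68 ± 0.15, and its second probe set differed in sign with high dexamethasone (0.23 against -0.53). BRIX1 fell by 1.09 ± 0.29 with the salmeterol combination and differed by -0.70 ± 0.29, not called, with the other. NIP7 differed by -1.66 ± 0.55 (adjusted p = 0.0564) and -1.64 ± 0.55 (adjusted p = 0.0784) and was not called: its combination arrays read 6.07 and 7.26, and 5.74 and 7.62, so replicates disagreed. With the mean of its probe sets NIP7 was called in both combinations, at -1.773 (adjusted p = 0.00459) and -1.615 (adjusted p = 0.0116), so its call depends on the probe set.

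Among the other nucleolar proteins, 5 of 6 were called lower with the salmeterol combination. CCDC86, a nucleolar coiled-coil protein, read 10.86 and 10.76 on the untreated arrays, 10.61 and 10.63 with salmeterol, 10.95 and 10.73 with CGS-21680, 9.02 and 8.98 with low dexamethasone and 8.87 and 8.70 with high dexamethasone. With the combinations CCDC86 read 7.01 and 6.92 beside salmeterol and 7.80 and 7.62 beside CGS-21680. The 2 agonists alone left it near the untreated level, dexamethasone took it below every array without dexamethasone, and the combinations took it lower again, with no overlap. CCDC86 fell by 1.81 ± 0.11 with low dexamethasone, to 0.285 of the untreated level (adjusted p = 2.8e-05), and by 2.02 ± 0.11 with high dexamethasone. With the salmeterol combination it fell by 3.84 ± 0.11, to 0.0696 of untreated (adjusted p = 1.01e-07), the largest change among the 38 genes, and with the CGS-21680 combination by 3.10 ± 0.11, to 0.117. Its promoter above holds an E box 25 bases and a cyclic AMP response element 62 bases before the start site.

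LYAR, a nucleolar zinc finger protein, read 9.40 and 9.11 on the untreated arrays, 8.88 and 8.74 with salmeterol, 9.13 and 9.10 with CGS-21680, 7.88 and 7.78 with low dexamethasone and 8.04 and 7.87 with high dexamethasone. With the combinations LYAR read 6.75 and 6.63 beside salmeterol and 7.02 and 7.16 beside CGS-21680. All dexamethasone arrays lay below all arrays without it, and the combination arrays lay below those of dexamethasone alone. LYAR fell by 1.42 ± 0.12 with low dexamethasone, 1.30 ± 0.12 with high dexamethasone, 2.56 ± 0.12 with the salmeterol combination and 2.16 ± 0.12 with the CGS-21680 combination. A second probe set of LYAR differed by -0.68 with high dexamethasone and -1.03 with the salmeterol combination, so the size depends on the probe set. DDX21, an RNA helicase that links polymerase I transcription to processing, read 11.70 and 11.67 on the untreated arrays, 11.28 and 11.38 with salmeterol, 11.66 and 11.75 with CGS-21680, 10.80 and 10.77 with low dexamethasone and 10.66 and 10.96 with high dexamethasone. With the combinations DDX21 read 9.32 and 9.58 beside salmeterol and 9.84 and 9.88 beside CGS-21680. Here too the dexamethasone arrays lay below those without it and the combination arrays lay lowest. DDX21 fell by 0.90 ± 0.12, 0.87 ± 0.12, 2.23 ± 0.12 and 1.82 ± 0.12 in those 4 comparisons.

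MYBBP1A, a nucleolar protein that binds MYB and other transcription factors, read 7.73 and 7.56 on the untreated arrays, 7.93 and 7.46 with salmeterol, 7.75 and 7.71 with CGS-21680, 7.50 and 7.46 with low dexamethasone and 7.46 and 7.46 with high dexamethasone. With the combinations MYBBP1A read 6.57 and 6.56 beside salmeterol and 7.21 and 7.16 beside CGS-21680. With the probe set used, MYBBP1A fell by 1.08 ± 0.14 with the salmeterol combination and was called in no other comparison with untreated cells. Its difference of -0.46 ± 0.14 with the CGS-21680 combination was not called. With the mean of its probe sets that difference was -0.86 and was called (adjusted p = 0.0127). The probe set used read 7.46 on both high dexamethasone arrays and differed by -0.19 from untreated there, whereas a second set differed by -0.84, so the response to dexamethasone alone depends on the probe set. Nucleolin (NCL) and nucleophosmin (NPM1) are abundant nucleolar proteins. NCL fell by 0.59 ± 0.15 with high dexamethasone and by 0.66 ± 0.15 and 0.65 ± 0.15 with the combinations. NPM1 read 14.41 and 14.33 on the untreated arrays, 14.39 and 14.32 with salmeterol, 14.22 and 14.54 with CGS-21680, 14.27 and 14.32 with low dexamethasone and 14.29 and 14.56 with high dexamethasone. With the combinations NPM1 read 14.10 and 14.04 beside salmeterol and 14.19 and 14.12 beside CGS-21680. NPM1 differed by -0.30 ± 0.12 in the salmeterol combination (adjusted p = 0.121) and its group means spanned 0.36. With the mean of its probe sets that difference was -0.26 and was called (adjusted p = 0.0472).

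**Figure D3:**
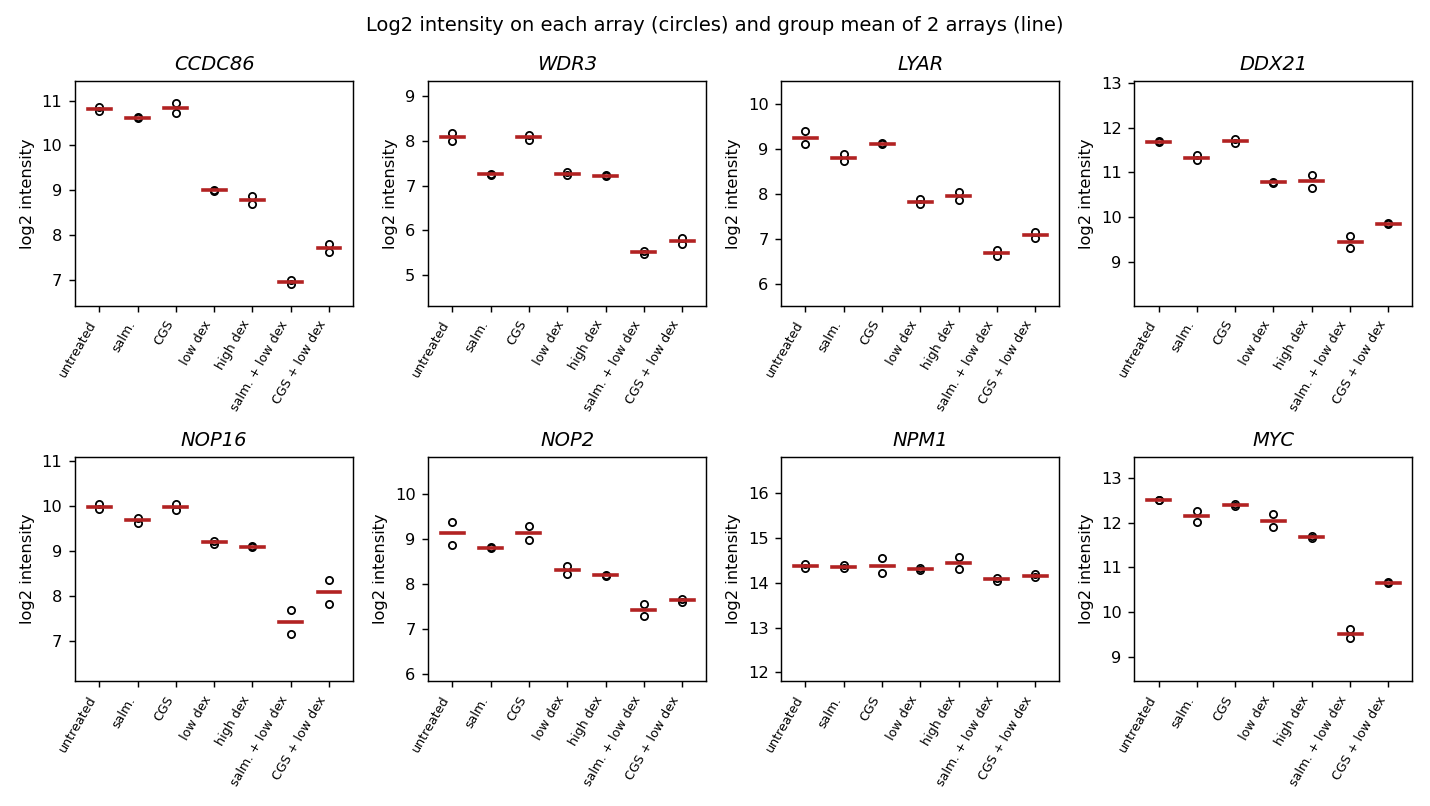
Log2 intensity of 7 ribosome biogenesis genes and MYC on each array (circles, 2 per group) with the group mean (line), on vertical axes of equal span. CCDC86, WDR3, LYAR, DDX21, NOP16 and NOP2 are lowest in the 2 combination groups at the right, NPM1 is nearly flat, and MYC runs from a mean of 12.50 in untreated cells to 9.53 with salmeterol and low dexamethasone.

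Whether an agonist acted differently beside dexamethasone was tested as an interaction: the change that the agonist made on top of low dexamethasone, minus the change it made alone. For salmeterol a negative interaction was called (limma, adjusted p under 0.05) for 5 of the 38 genes and for 0.419% of all genes. For CGS-21680 it was called for 2 of the 38 and for 0.0645% of all genes. CCDC86 changed by -0.19 with salmeterol alone and by -2.03 beside dexamethasone, an interaction of -1.84 ± 0.15 (adjusted p = 0.000631). For WDR3 the 2 changes were -0.83 and -1.75 (interaction -0.92 ± 0.14, adjusted p = 0.009), and for DDX21 -0.35 and -1.33 (interaction -0.98 ± 0.17, adjusted p = 0.0229). NOP16 and MYBBP1A had interactions of -1.47 ± 0.28 (adjusted p = 0.0359) and -0.96 ± 0.19 (adjusted p = 0.0468). With CGS-21680 the interaction was -1.49 ± 0.14 for WDR3 (adjusted p = 0.00551) and -1.31 ± 0.15 for CCDC86 (adjusted p = 0.0175). For both genes CGS-21680 alone moved the level little (-0.01 and 0.03), and beside dexamethasone it lowered WDR3 by 1.50 and CCDC86 by 1.29.

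These interaction calls depended on single arrays. Leaving out each array in turn gave 2 to 4 calls for salmeterol, with 2 without either untreated array or either low dexamethasone array and 3 without salmeterol replicate 2, either CGS-21680 array, either high dexamethasone array or replicate 1 of salmeterol with low dexamethasone. For CGS-21680 it gave 1 to 2, with 1 without either untreated array, CGS-21680 replicate 1 or either low dexamethasone array. WDR3 and CCDC86 with salmeterol and WDR3 with CGS-21680 were called in every such fit. Over the whole set the combination lay below the sum of the 2 single changes for 34 of the 38 genes with salmeterol and for 36 with CGS-21680. The median gene changed by -0.78 as a sum and -1.15 in the salmeterol combination, and by -0.49 and -0.93 for CGS-21680. The exceptions were UTP15 and PNO1 with both agonists, and POLR1A and RRP12 with salmeterol. These sums and combinations share the 2 untreated arrays and the median interaction over all genes was 0.05 and -0.01. Most of all 9301 genes thus lay above their sum with salmeterol and below it with CGS-21680. Called interactions over all genes were 111 higher and 39 lower with salmeterol, and 8 higher and 6 lower with CGS-21680.

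**Figure D4:**
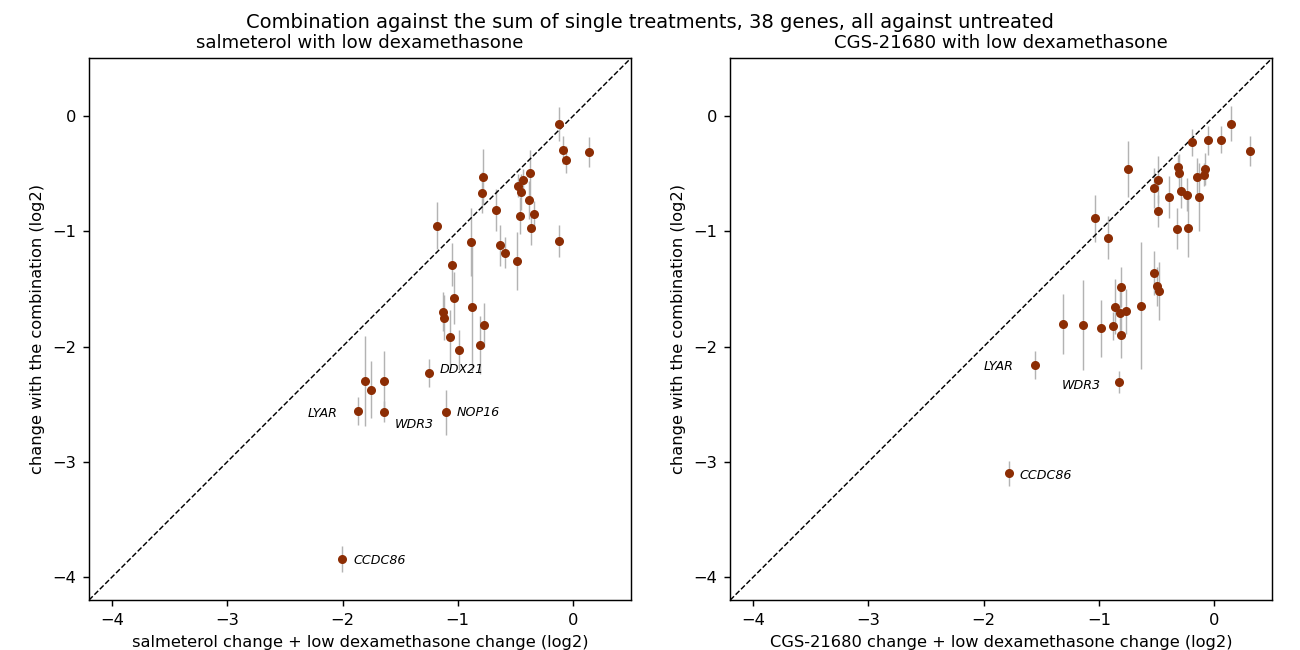
For each of 38 genes, the log2 change with the combination against untreated cells (vertical, with the standard error of the fit) over the sum of the changes with the agonist alone and low dexamethasone alone (horizontal); the dashed line marks equality. Points below the line are 34 of 38 for salmeterol (left) and 36 of 38 for CGS-21680 (right), with CCDC86 farthest down in both. Over all genes tested, the median of the combination change minus the sum was 0.05 for salmeterol and -0.01 for CGS-21680.

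Other genes of the same pathway gave a smaller shift. The lists were chosen with earlier results of these data known, and how far that choice made the contrast was not tested. Of 102 other assembly factors 96 were tested. In them 10 were called lower with low dexamethasone, 19 with high dexamethasone, 46 with the salmeterol combination and 38 with the CGS-21680 combination, and none was called higher in these 4 comparisons. Their median differences were -0.33, -0.37, -0.55 and -0.46. Adding salmeterol to low dexamethasone lowered 20 of them, and adding CGS-21680 lowered 7 and raised EXOSC1, an RNA exosome subunit, by 0.44 ± 0.095. With dexamethasone the smallest adjusted p-values belonged to RRP15, a 60S factor, which fell by 1.15 ± 0.14 at the low dose and 1.09 ± 0.14 at the high dose. URB2 fell by 1.06 ± 0.15 at the low and 1.08 ± 0.15 at the high dose, EXOSC9 by 0.60 ± 0.09 at the low dose, and NOL11 by 0.85 ± 0.11 at the high dose. Added salmeterol lowered BYSL, a late 40S factor, by 1.40 ± 0.13, NIFK by 1.08 ± 0.13 and RUVBL1 by 1.24 ± 0.15. Added CGS-21680 lowered BYSL by 0.82 ± 0.13, NIFK by 0.80 ± 0.13 and UTP3 by 0.80 ± 0.14.

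The remaining polymerase I genes did not all follow. Of 16 tested from 18, 2 were called lower with low dexamethasone, 5 with high dexamethasone, 8 with the salmeterol combination and 6 with the CGS-21680 combination. POLR1G fell by 1.37 ± 0.17 with low and 1.44 ± 0.17 with high dexamethasone. POLR1E, a subunit that helps the enzyme start and elongate, was called higher. POLR1E read 7.65 and 7.96 on the untreated arrays, 7.92 and 7.95 with salmeterol, 7.81 and 8.06 with CGS-21680, 8.05 and 8.05 with low dexamethasone and 8.05 and 8.05 with high dexamethasone. With the combinations POLR1E read 9.81 and 9.60 beside salmeterol and 9.08 and 9.35 beside CGS-21680. Adding salmeterol to low dexamethasone raised POLR1E by 1.66 ± 0.14 (adjusted p = 9.87e-05) and adding CGS-21680 by 1.17 ± 0.14 (adjusted p = 0.00263). POLR1H was the other gene called higher, by 0.61 ± 0.16 with the CGS-21680 combination against untreated cells.

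Genes of the ribosomal proteins themselves gave hardly any call. Of 79 listed, 52 were tested. With limma none was called against untreated cells in any of the 6 treatments or when an agonist was added to low dexamethasone; at an unadjusted p under 0.05 there were 4 with salmeterol, 2 with high dexamethasone, 2 with the salmeterol combination, 2 when salmeterol was added to low dexamethasone and 0 in the others. RPL11 and RPL14 were called lower in the salmeterol combination against high dexamethasone, by 0.48 and 0.32. Over the 19 alternatives up to 4 were called when salmeterol was added to low dexamethasone, up to 3 with the salmeterol combination and up to 2 with the CGS-21680 combination against untreated cells, and 0 to 5 in the salmeterol combination against high dexamethasone. The median difference of the 52 from untreated was -0.08 with the salmeterol combination and -0.03 with the CGS-21680 combination. A p that misses the threshold does not show that these levels were equal. Many of these probe sets were bright, with untreated means of 16.43 for RPL41 and 16.22 for RPS18. Whether differences are compressed at such levels was not tested.

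MYC read 12.49 and 12.51 on the untreated arrays, 12.02 and 12.26 with salmeterol, 12.41 and 12.36 with CGS-21680, 11.90 and 12.18 with low dexamethasone and 11.66 and 11.69 with high dexamethasone. With the combinations MYC read 9.42 and 9.63 beside salmeterol and 10.65 and 10.67 beside CGS-21680. MYC differed by -0.46 ± 0.12 with low dexamethasone (adjusted p = 0.0738), which was not called, and fell by 0.82 ± 0.12 with high dexamethasone (adjusted p = 0.00379). It fell by 2.97 ± 0.12 with the salmeterol combination and by 1.84 ± 0.12 with the CGS-21680 combination, and 1 of these 2 groups was also the lowest for 36 of the 38 genes. Its interaction was -2.15 ± 0.17 with salmeterol (adjusted p = 0.000537) and -1.27 ± 0.17 with CGS-21680 (adjusted p = 0.0338). MYC moved with the results above, and its part in them was not tested.

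Correlations between replicate arrays over all tested genes were 0.9868 (high dexamethasone) to 0.9919 (low dexamethasone). All 8 plasma cell markers (SDC1, TNFRSF17, IRF4, PRDM1, XBP1, CD38, MZB1 and SLAMF7) passed the filter, at log2 levels of 5.75 to 13.15. The 3 T cell and 4 myeloid markers with a probe set did not pass, with no array above 3.08. Of 5 stromal markers COL1A1 passed, between 7.07 and 7.43, and the erythroid gene HBB read 7.15 to 7.69. The untreated level of a gene had a rank correlation of 0.07 with its change in the salmeterol combination over the 38 genes, which share the same arrays.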

How the data were processed

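RNA of 14 MM1S samples was measured on Affymetrix expression arrays. The intensity values were deposited by the authors, and GCRMA is named in the submitters' processing notes; the sources used here give neither its version nor its settings. GCRMA corrects background and normalizes between arrays, which compresses dim genes toward a shared floor (4.879, or 2.29 in log2). The linear scale was inferred from the values. Of 54675 probe sets, 41097 carried 1 gene symbol in the platform annotation, 1801 several and 11777 were not listed. Log2 was taken without a pseudocount, and a two-sided limma fit (version 3.58.1 under R 4.3.3, default eBayes; 7 residual and 2.3 prior degrees of freedom) gave differences, standard errors and Benjamini-Hochberg adjusted p-values, called under 0.05. The code was tested on simulated data. With 2 arrays a group, the smallest p of an exact permutation test is 0.333, and the number of arrays limits the precision.

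Members, gene lists and naming rules were chosen with earlier results of these data known. Values on every array are given for up to 5 called genes with the smallest adjusted p in each main comparison, the 3 smallest of the F test and the 3 narrowest ranges, plus POLR1B, WDR12, POLR1E and MYC. Alternatives were quantile normalization, no filter, the mean of a gene's probe sets, a variance trend with robust fit, a replicate block and leaving out each array.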

Additional observations from a re-analysis of the deposited data

Results flagged for a closer look

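The effect of an agonist differed with and without low dexamethasone for 5 genes, by the interaction test of the limma fit. With salmeterol the difference between the 2 effects was -1.84 (log2) for CCDC86, -0.92 for WDR3, -0.98 for DDX21, -1.47 for NOP16 and -0.96 for MYBBP1A. With CGS-21680 it was -1.49 for WDR3 and -1.31 for CCDC86. The adjusted p-values were closest to the threshold for MYBBP1A (0.0468) and NOP16 (0.0359), and with the mean of their probe sets these became 0.286 and 0.138. That mean also gave calls not made with the probe sets used. They were LYAR with salmeterol (-0.81, adjusted p = 0.0466) and DDX21 with CGS-21680 (-0.85, adjusted p = 0.046). Groups of 2 arrays are too small for a test of outlying samples.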

How the results depend on the processing

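No called value changed sign in any alternative, and the 14 arrays left out in turn gave ranges of called genes among the 38. These were 1 to 2 (salmeterol alone), 5 to 15 (high dexamethasone), 0 to 1 (high against low dexamethasone, 1 without high dexamethasone replicate 1), 13 to 23 and 3 to 8 (salmeterol and CGS-21680 added to low dexamethasone), 11 to 19 (salmeterol combination against high dexamethasone), and 2 to 4 and 1 to 2 (the interactions). With no filter, which tests more genes, the counts were 1 for salmeterol alone, 7 for high dexamethasone, 4 for CGS-21680 added to low dexamethasone, 11 for the salmeterol combination against high dexamethasone and 3 for the salmeterol interaction. Quantile normalization gave 9 for low dexamethasone; the cause was not tested. Of the called genes, 25 of 32 in the salmeterol combination and 17 of 26 in the CGS-21680 combination against untreated cells kept their call in every alternative, against 5 of 14 with high dexamethasone and 4 of 5 with low dexamethasone. For the other assembly factors the counts ranged from 33 to 47 and from 22 to 44 in the 2 combinations, and from 6 to 24 with high dexamethasone.

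Whether the replicate numbers pair the arrays was not settled by the values. Deviations of same-numbered arrays correlated between -0.173 and 0.255 over 21 pairs of groups, with a median of 0.105, and 12 were over 0.1. With a replicate block the counts were 18 for high dexamethasone and 33 and 30 for the combinations against untreated cells, and the 1 call lost was NHP2 in the salmeterol combination (adjusted p = 0.0507). Some probe sets read the same value on both arrays of a group well above the shared floor (POLR1A 6.21, UTP15 5.65, MYBBP1A 7.46). WDR3 read 7.24 on an array each of salmeterol, low dexamethasone and high dexamethasone, and its interaction tests draw on some of these arrays. Small differences near such levels may be compressed.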

Other observations

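Among genes outside the 38, POLR1E rose while POLR1G, another polymerase I subunit, fell in the same combinations. POLR1E was higher by 1.90 ± 0.14 with the salmeterol combination and 1.41 ± 0.14 with the CGS-21680 combination, and POLR1G was lower by 2.13 ± 0.17 and 2.28 ± 0.17. POLR1G is among the genes named by rule; this contrast was chosen after the values were seen.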
